A study of Mus musculus with 5 samples.

Results

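The resistin-like molecules (RELM) and intelectin are small families of secreted proteins that mark type 2 immune responses in mouse tissue. The genes followed here are the 4 RELM family genes Retnla, Retnlb, Retnlg and Retn, together with the intelectin gene Itln1. They were taken by symbol, as every probe set that the Mouse Genome 430 2.0 annotation assigns to a listed gene and to no other. This found 4 probe sets of 45101, each standing for 1 gene (Retnla 1449015_at, Retnlb 1418368_at, Retn 1449182_at and Itln1 1418165_at), so 4 of the 5 genes were measured among 18193 genes tested. Retnlg was not analysed here, because the annotation used names no probe set for it.

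RNA of whole esophagus was read on 5 arrays from mice of an IL-13 transgenic line on the FVB/N background, aged 3 to 4 months. Both groups are labelled as carrying CC10-IL-13. As background, the CC10 promoter is active in airway club cells, and in doxycycline-inducible lines of this kind it drives the activator that switches on the cytokine. The construct is not described further in the labels. The Dox group (n = 3 arrays) received doxycycline in the diet and the NoDox group (n = 2 arrays) a regular diet. The labels do not say whether an array is 1 animal or a pool, nor how long the diet was given, and the p-values therefore cover only array-to-array spread, which may be technical. Non-transgenic mice on doxycycline were not analysed here, and effects of the drug and of the cytokine cannot be told apart. Each deposited value divides an array's signal by the NoDox mean of that probe set. From these ratios the original signal was recovered in steps, the whole-number units in which it had been stored (median 2899 steps). A step says how bright a probe set was, and steps are compared only between arrays of the same probe set. Precision is limited by having 5 arrays. The Il13 probe set was dim, at 125 to 375 steps in Dox and 326 to 444 steps in NoDox, and whether it reads the transgene is not given in the sources used here.

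As background, RELM proteins are short, cysteine-rich and secreted. Retnla encodes RELM-alpha, also called FIZZ1, which alternatively activated macrophages, eosinophils, airway epithelium and fat make, and which IL-4 and IL-13 induce through the transcription factor STAT6. Retnlb encodes RELM-beta, a product of intestinal goblet cells that is induced in type 2 responses to worms. Retnlg encodes RELM-gamma, found in bone marrow and neutrophils. Retn encodes resistin, which in mice comes mainly from adipocytes and is known for its link to insulin resistance. Itln1 encodes intelectin, a calcium-dependent lectin that binds sugars of microbial surfaces and is made by goblet and Paneth cells.

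In RefSeq (GRCm38.p6, from C57BL/6J mice) the genes lie in 3 places. Retnlb (chr16:48816856-48818892), Retnla (chr16:48842609-48844461) and Retnlg (chr16:48872608-48874498) form a row on chromosome 16, with 23.7 kb between the first pair and 28.1 kb between the second. Retn is at chr8:3655770-3659818 and Itln1 at chr1:171518123-171535325. The 250 bases before the start of transcription, as the RefSeq promoter table places it, are shown for both genes that rose, Itln1 and Retnla, and for Retn, which did not pass the test, since STAT6 carries the IL-13 signal to promoters. They are written 5′ to 3′ on the gene's strand, from chr1:171535295-171535544 (minus strand), chr16:48842359-48842608 (plus strand) and chr8:3655520-3655769 (plus strand). The Itln1 window overlaps the outer end of the gene's interval by 31 bases, because the start used in the promoter table lies inside that interval, and the other windows abut their genes. Capitals mark a STAT6-type motif, TTC and GAA separated by 4 bases, or the general STAT form with 3 bases between them.
Itln1: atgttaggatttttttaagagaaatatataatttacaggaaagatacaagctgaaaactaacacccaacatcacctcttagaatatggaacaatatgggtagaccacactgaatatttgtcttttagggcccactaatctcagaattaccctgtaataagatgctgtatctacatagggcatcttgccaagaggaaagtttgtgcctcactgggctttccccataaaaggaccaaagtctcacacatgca
Retnla: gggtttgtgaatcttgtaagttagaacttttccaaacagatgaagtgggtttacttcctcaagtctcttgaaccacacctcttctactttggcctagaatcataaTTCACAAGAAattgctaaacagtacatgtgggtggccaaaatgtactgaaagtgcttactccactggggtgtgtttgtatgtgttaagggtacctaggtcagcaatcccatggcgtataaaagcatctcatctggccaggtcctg
Retn: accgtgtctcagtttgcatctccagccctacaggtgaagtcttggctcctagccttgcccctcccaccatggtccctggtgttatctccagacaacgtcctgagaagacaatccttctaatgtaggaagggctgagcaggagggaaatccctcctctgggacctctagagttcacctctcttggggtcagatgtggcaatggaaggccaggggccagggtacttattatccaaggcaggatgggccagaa
Retnla has 1 match to the form with 4 bases between, the run TTCACAAGAA, which begins 145 bases before the start. Directly after it, 134 bases before the start, begins a match to the C/EBP motif TTGCNNAA. Retnlg has a similar run at chr16:48872358-48872607, TTCACAGGAA, which begins 72 bases before its start. The windows of Itln1 and Retn hold neither form, which says only that these letters are not in these 250 bases. Both forms read the same on either strand, and among all 32851 RefSeq promoter windows 5.85% hold the one with 4 bases between and 7.02% the one with 3. TTGCNNAA, searched on both strands, is in 9.56% of them. No promoter sequence is shown for Retnlb.

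Itln1 and Retnla rose in the Dox esophagus, Itln1 by a fitted 25.4-fold from a low NoDox signal and Retnla by about 2.19-fold, while Retnlb and Retn did not pass the test. Both genes that rose had all 3 Dox arrays above both NoDox arrays. Over the whole table, limma with Benjamini-Hochberg adjustment called 246 of 18193 genes higher (1.35%) and 216 lower (1.19%) at adjusted p under 0.05, or 2.54% together. All 3 Dox arrays lay above both NoDox arrays in 13.6% of genes, and the groups did not overlap, in either direction, in 35.9%. The fitted change was above 0 in 42% of genes and in 3 of these 4. The 2 of 4 measured genes that rose stand against that 1.35%, with the reservation that these genes were picked with earlier results of the same arrays known. The overall counts depended on single arrays. Leaving out Dox replicate 2 gave 376 higher and 503 lower, and leaving out Dox replicate 3 gave 117 and 48. They were 41 and 8 with NoDox replicate 1 omitted, and 54 and 12 with NoDox replicate 2 omitted. They also depended on scaling, with 292 higher and 146 lower after centring each array on its median, 353 and 142 on signals without the per-array scale, 300 and 112 after quantile normalization of the recovered signals, and 54 and 12 after quantile normalization of the ratios.

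**Figure D1:**
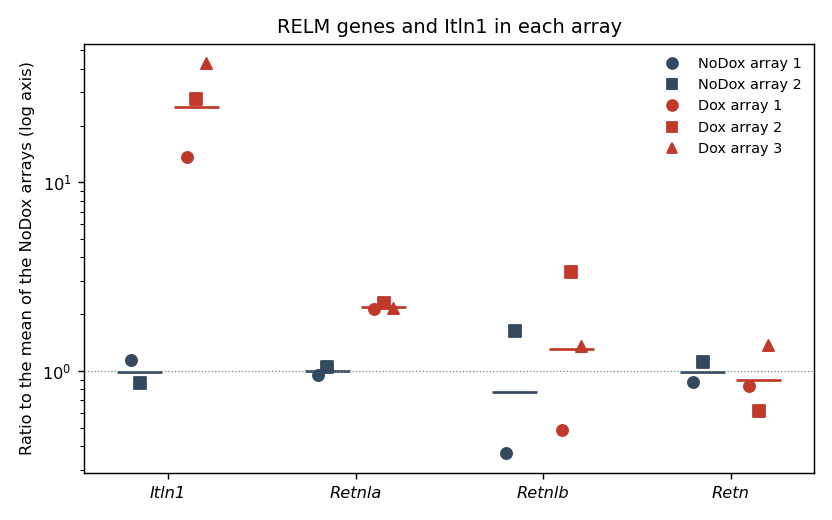
Deposited ratio, relative to NoDox (log axis), for Itln1, Retnla, Retnlb and Retn in each of the 3 Dox and 2 NoDox arrays. Points are arrays and bars are group means on the log scale. Itln1 lies between 13.6 and 42.6 in Dox and Retnla between 2.13 and 2.30, both clear of NoDox, whereas the groups of Retnlb and Retn overlap.

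Itln1, the lectin gene, had ratios of 13.6, 27.6 and 42.6 in Dox arrays 1, 2 and 3 and of 1.14 and 0.861 in NoDox arrays 1 and 2. In recovered signal this was 3980, 8427 and 12437 steps in Dox against 315 and 235 steps in NoDox. All Dox arrays were high and the groups did not overlap, but Dox array 3 was 3.14-fold above Dox array 1. Its log2 fold change was 4.67 ± 0.57 (SE, limma, adjusted p = 0.00401, 3 Dox and 2 NoDox arrays), with a 95% interval of 3.39 to 5.95. On the linear scale the interval runs from 10.5-fold to 61.7-fold. The NoDox signals were low and carry no detection call, so the size of the rise is less certain than its direction. Omitting NoDox replicate 1 ended the call (adjusted p = 0.0678), as did omitting NoDox replicate 2 (adjusted p = 0.0815), and the fold change was 3.05 on the log2 scale with an offset of 64 added to the signal (a step being taken as 0.1 signal units, an assumption), where the call held (adjusted p = 0.0123). The number of intelectin copies differs between mouse strains, and the RefSeq table lists Itln2, Itln3, Itln5 and Itlna among the older names of this locus, so which copy an FVB/N mouse expressed is uncertain.

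Retnla, the RELM-alpha gene, had ratios of 2.13, 2.30 and 2.15 in Dox arrays 1, 2 and 3 and of 0.954 and 1.05 in NoDox arrays 1 and 2. The Dox arrays lay within 1.08-fold of each other and the NoDox arrays within 1.10-fold, with no overlap, which made it the least variable of the 4 genes. Its log2 fold change was 1.13 ± 0.13 (SE, limma, adjusted p = 0.00288), with a 95% interval of 0.85 to 1.42, or 1.80-fold to 2.68-fold. Its signal was too bright to be recovered exactly, and the search sets a lower bound of 18774 steps for NoDox array 1. Thus the transcript was bright in the esophagus of mice on the regular diet too, and the rise in Dox started from that level. Its call ended too when either NoDox array was omitted (adjusted p = 0.0853 for replicate 1 and 0.0533 for replicate 2).

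Retnlb, the RELM-beta gene, had ratios of 0.487, 3.35 and 1.36 in Dox arrays 1, 2 and 3 and of 0.366 and 1.63 in NoDox arrays 1 and 2. The recovered signals were 93, 667 and 259 steps in Dox and 66 and 291 steps in NoDox. Dox array 2 was the highest, the other Dox arrays lay inside the range of the NoDox arrays, and the groups overlapped. The log2 fold change of 0.75 ± 1.18 was not past the threshold (limma, adjusted p = 0.796). Its 95% interval runs from -1.92 to 3.42, so a rise or a fall within these limits could not be resolved with these arrays. With signals this low the probe set is dim, and the deposited ratios hold no detection call. Retnlb lies next to Retnla on chromosome 16, and the difference between their log2 fold changes was 0.38 (exact permutation test, two-sided, p = 0.7). With 3 against 2 arrays that test cannot give a p below 0.1, so whether the 2 neighbours differ was not resolved.

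Retn, the resistin gene, had ratios of 0.836, 0.614 and 1.38 in Dox arrays 1, 2 and 3 and of 0.877 and 1.12 in NoDox arrays 1 and 2. It was bright in all arrays, at 28728, 21993 and 47123 steps in Dox and 28429 and 35954 steps in NoDox. The Dox arrays lay on both sides of NoDox, with array 3 highest and array 2 lowest. The log2 fold change of -0.16 ± 0.29 was not past the threshold (limma, adjusted p = 0.834). Its 95% interval of -0.81 to 0.50 leaves out a rise of the size measured for Retnla, and the sign of so small a value changed when Dox replicate 2 (0.11) or NoDox replicate 2 (0.02) was omitted.

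Differences between the 4 genes in their response were tested array by array, over 6 pairs, with an exact permutation test (two-sided) whose smallest possible p with 3 against 2 arrays is 0.1. Retnla minus Itln1 was -4.31 to -2.67 on the log2 scale in the Dox arrays and -0.26 to 0.28 in the NoDox arrays, so the groups did not overlap (exact p = 0.1, adjusted over the 6 pairs 0.2). Retn minus Itln1 was -5.49 to -4.02 in Dox and Retnlb minus Itln1 was -4.97 to -3.04, each with the same p. Retnla minus Retn was 0.64 to 1.90 in Dox and -0.10 to 0.12 in NoDox, also without overlap (exact p = 0.2, adjusted 0.3). Retnlb minus Retn, a difference of 0.91 between log2 fold changes, overlapped between the groups (exact p = 0.7). With this number of arrays no pair could pass 0.05.

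**Figure D2:**
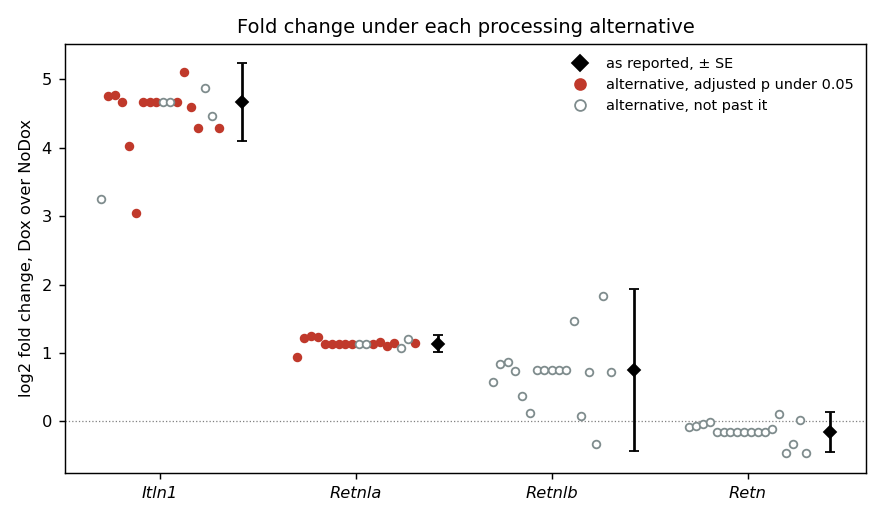
log2 fold change of each gene, Dox over NoDox, as reported (black diamonds, bars are SE) and under each processing alternative (circles, filled where the adjusted p is under 0.05). Itln1 ranges from 3.05 to 5.11 and Retnla from 0.94 to 1.24 over the alternatives, all above 0, while Retnlb and Retn fall on both sides of 0.

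A receptor chain and a decoy receptor of the IL-13 signal rose as well, and so did Socs3, a feedback inhibitor of cytokine signals. Among 15 tested genes of IL-4 and IL-13 signalling 3 rose and 0 fell, where 1.35% of all genes rose and 1.19% fell. Their median log2 fold change was 0.40 against -0.08 for all genes. Il4ra, the receptor chain shared by both cytokines, had ratios of 4.55, 3.59 and 4.52 in Dox and rose by 2.11 ± 0.25 on the log2 scale (limma, adjusted p = 0.00332). Il13ra1, the chain that pairs with Il4ra to form the signalling receptor for IL-13, is named after its values were seen. It had ratios of 1.87, 1.03 and 1.20 in Dox and 1.05 and 0.954 in NoDox, which overlap, and its log2 fold change of 0.40 ± 0.23 was not past the threshold (limma, adjusted p = 0.423). The decoy receptor Il13ra2 rose by 2.40 ± 0.37 and the feedback inhibitor Socs3 by 0.89 ± 0.13. Socs1, another feedback inhibitor of the list, is named after its values were seen and was not past the threshold (0.60 ± 0.52). Among the brighter members not past the threshold were Stat6 at -0.05 ± 0.12, Jak1 at -0.08 ± 0.16 and Cish at 0.01 ± 0.16, of which Stat6 and Jak1 turn positive with another scaling (up to 0.09 and 0.08). Single arrays decided much of this, as the count was 1 when Dox replicate 3, NoDox replicate 1 or NoDox replicate 2 was omitted, and 0 after quantile normalization of the ratios.

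Genes that accompany Retnla in alternatively activated macrophages were uneven. Of 22 such genes 6 rose and 0 fell, where 1.35% of all genes rose and 1.19% fell. Their median was 0.64 against -0.08 for all genes. The lipoxygenase Alox15 rose by 6.27 ± 0.20, the chitinase-like genes Chil3 by 5.57 ± 0.18 and Chil4 by 5.54 ± 0.20 (limma, each with an adjusted p of at most 2.34e-06). Chil3 and Chil4 share sequence, so their values are not independent. Arg1, the arginase that is used beside Retnla to define this state, was bright and had ratios of 0.964, 0.916 and 0.819 in Dox against 0.987 and 1.01 in NoDox, for a log2 fold change of -0.16 ± 0.13 that was not past the threshold. Arg1 was the brightest gene of this list, at percentile 99.4 of signal among the genes tested. Which cells of the whole esophagus made it was not tested, so a change within macrophages cannot be read from it. The transglutaminase Tgm2 (0.16 ± 0.15) and the clotting factor subunit F13a1 (0.08 ± 0.12) did not pass the threshold either. Alox15, Chil3 and Chil4 were called whichever of the 5 arrays was omitted. The count for the list was 4 with Dox replicate 1, Dox replicate 3 or NoDox replicate 1 omitted, and 3 with NoDox replicate 2 omitted or after quantile normalization of the ratios.

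Transcription factors known to act on RELM and resistin genes were not past the threshold. Of 10 regulators 0 rose and 0 fell in limma's test. With 2.54% of all genes called, a count of 0 in so short a list does not set it apart. Their median log2 fold change of -0.03 turns positive under each of the 4 other scalings (0.04 to 0.08). Klf4 stood at -0.20 ± 0.13 and Cebpb, a C/EBP factor of macrophages, at -0.08 ± 0.14 (0.06 at most with another scaling). Of 5 proposed receptors or binding partners of these secreted proteins 0 rose and 0 fell, too few genes to set against that 2.54%. Their median of -0.24 becomes 0.27 when the probe set of highest mean log2 ratio stands for each gene. With Dox replicate 2 omitted 1 of them fell. The lipopolysaccharide receptor Tlr4 was at 0.20 ± 0.21, the resistin-binding Cap1 at -0.24 ± 0.16 and decorin (Dcn) at -0.16 ± 0.12. Lactoferrin (Ltf), a binding partner of intelectin, had ratios of 0.0575, 1.33 and 0.0822 in Dox, low in arrays 1 and 3 and not in array 2, and its log2 fold change of -2.44 ± 1.08 was not past the threshold (limma, adjusted p = 0.286).

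**Figure D3:**
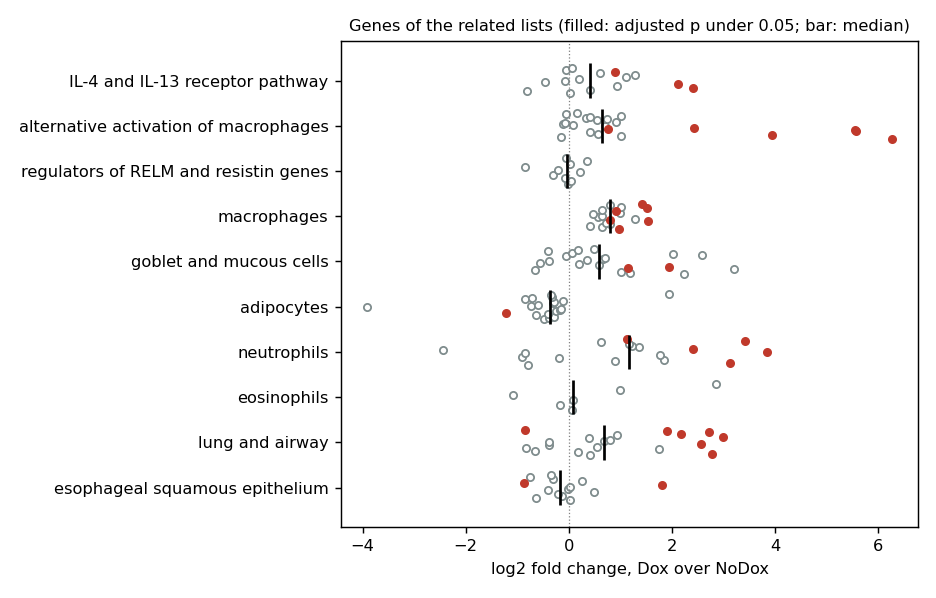
log2 fold change, Dox over NoDox, of each gene in 10 lists related to the RELM genes and Itln1 (the 5 receptors and binding partners are not drawn). Each circle is a gene, filled where limma's adjusted p is under 0.05, and the black bar is the list's median. The macrophage list has a median of 0.80 and the adipocyte list one of -0.36.

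Cell types that make these proteins were read from marker lists, since in whole tissue more cells of a type and more RNA per cell cannot be told apart. Among all genes 1.35% rose and 1.19% fell, the shares to set beside the counts of this and the later lists. The squamous keratins Krt4 and Krt13 and the desmosomal Dsp, which define esophageal epithelium, were bright in all 5 arrays. Of 14 squamous genes 7 had all Dox arrays below both NoDox arrays and 3 had them above, against 22.3% and 13.6% of all genes. The list's median was -0.16 (0.01 with the probe set of highest mean log2 ratio). In limma's test 1 of 14 rose (Krt6a, a keratin of stressed epithelium, by 1.80 ± 0.13) and 1 fell (Ppl, at -0.88 ± 0.14). The count that fell was 4 with Dox replicate 2 omitted and 0 with Dox replicate 3 or either NoDox array omitted. Of 18 macrophage genes 6 rose and 0 fell, and the median was 0.80. In 17 of these macrophage genes, against 13.6% of all genes, all Dox arrays lay above both NoDox arrays. Their signals, summed over the 11 genes recovered, were 173127 to 213811 steps in Dox and 81745 to 89701 steps in NoDox. The lysosomal Cd68 rose by 1.54 ± 0.15, the signalling adaptor Tyrobp by 1.42 ± 0.18 and the pore-forming Mpeg1 by 1.52 ± 0.25. The complement genes C1qa (0.65), C1qb (0.42) and C1qc (0.79) were not past the threshold. Macrophage markers thus moved between the groups as Retnla did, but not alike among the Dox arrays. Their median ratio was 1.93, 1.62 and 1.91 in Dox arrays 1, 2 and 3, lowest in array 2, where Retnla was highest. The part of macrophages in the rise of Retnla was not tested. The macrophage count was 4 with Dox replicate 3 omitted, 1 with NoDox replicate 1 omitted, 2 with NoDox replicate 2 omitted, and 1 after quantile normalization of the ratios.

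Eosinophils are another source of RELM-alpha, and their listed markers did not pass the threshold. Of 6 listed genes tested 0 rose and 0 fell in limma's test, and their median was 0.08. Their summed signal was 2324 to 5040 steps in Dox and 1628 to 3562 steps in NoDox. All 6 were dim, and the filter on low signal, which drops a share of 0.25 of the genes, left 0 of them. At such signals the count and median of this list cannot show whether eosinophil markers changed. Another 4 listed genes, Ear1, Ear2, Ear6 and Cebpe, were not tested. The eosinophil-associated ribonuclease genes Ear3, Rnase2a and Rnase2b are not in the list and came up by their likeness to Itln1. They rose by 5.14 ± 0.26, 4.84 ± 0.27 and 4.91 ± 0.23 and were called whichever Dox array was omitted. Because genes picked for resembling Itln1 must rise, these values are no separate reading of eosinophils. Siglecf had ratios of 8.35, 3.24 and 9.73 in Dox and 0.546 and 1.45 in NoDox, without overlap, but its log2 fold change of 2.85 ± 0.84 was not past the threshold (limma, adjusted p = 0.120). The granule protein gene Prg2 (-1.09 ± 1.02) and the chemokine receptor Ccr3 (0.07), dim like Siglecf, were not past it either. The part of eosinophils in the rise of Retnla was not tested. The median of this list turns negative with quantile normalization of the ratios (-0.02) and with an offset of 16 (-0.05) or 64 (-0.06).

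Goblet and mucous cell genes, which keep company with Itln1 and Retnlb in gut and airway, rose in 2 of 21 cases and fell in 0. Their median was 0.58, and their summed signal was 118627 to 146378 steps in Dox against 69175 to 93248 steps in NoDox. Fcgbp, a mucus-binding protein, rose by 1.95 ± 0.22 and the transcription factor Creb3l1 by 1.15 ± 0.24 (limma, adjusted p = 0.00314 and 0.0406). The brightest of those not past the threshold were the trefoil factor Tff1 (0.06 ± 0.24), the secretoglobin Scgb3a1 (-0.05 ± 0.27, and 0.06 at most with another scaling) and the glycosyltransferase Galnt12 (-0.57 ± 0.33). Clca1, a goblet cell gene that IL-13 induces in the airway, was chosen for mention after its values were seen. It had ratios of 3.61, 7.25 and 19.2 in Dox and 0.497 and 1.5 in NoDox, with a log2 fold change of 3.2 ± 0.73 that did not pass (limma, adjusted p = 0.0581). The median ratio of the goblet list was 1.53, 1.46 and 1.21 in Dox arrays 1, 2 and 3, highest in array 1 and lowest in array 3. Itln1 and Clca1 were lowest in array 1 and highest in array 3. The summed signal of the goblet list stood in that same order, at 118627, 137917 and 146378 steps, so the 2 measures of the list differ. The part of mucous cells in the rise of Itln1 was not tested. The count of risen genes was 1 with Dox replicate 3 or NoDox replicate 2 omitted, and 0 with NoDox replicate 1 omitted or after quantile normalization of the ratios.

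Lung and airway genes also moved with the groups. Of 19 genes 6 rose and 1 fell, with a median of 0.69, and the 10 recovered members summed to 116468 to 199479 steps in Dox and 58580 to 81952 steps in NoDox. The surfactant gene Sftpc had ratios of 4.69, 3.16 and 6.22 in Dox and rose by 2.18 ± 0.25, Sftpa1 rose by 2.99 ± 0.38 and Sftpd by 2.71 ± 0.37. The median ratio of the list was 1.37, 1.49 and 2.56 in Dox arrays 1, 2 and 3, lowest in array 1 and highest in array 3, the order in which Itln1 stood. The summed signal did not follow that order, at 132150, 116468 and 199479 steps, and like Sftpc it was lowest in array 2. Airway epithelium can make both RELM-alpha and intelectin, and the part of lung RNA in either rise was not tested. With either NoDox array omitted, 0 genes of this list rose. The gene that fell, Tppp3 (-0.84 ± 0.18), was not called with Dox replicate 1, Dox replicate 3 or either NoDox array omitted.

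Adipocyte markers, the counterpart of Retn, did not rise in the test. Of 20 genes 0 rose and 1 fell, the fatty acid elongase Elovl6 at -1.23 ± 0.16 (limma, adjusted p = 0.00701), and the median was -0.36. The lipid carrier Fabp4 stood at -0.25 ± 0.13 and the glucose transporter Slc2a4 at -0.33 ± 0.14. The median ratio of the list was 0.593, 0.929 and 0.744 in Dox arrays 1, 2 and 3, lowest in array 1, whereas Retn was lowest in array 2 and highest in array 3. Only 4 of these genes had a recovered signal, which summed to 25999 to 63280 steps in Dox and 57479 to 65303 steps in NoDox. Elovl6 lost its call when either NoDox array was omitted (adjusted p up to 0.123). With Dox replicate 1 omitted 2 genes of the list fell, and with Dox replicate 2 omitted 3 fell.

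Neutrophil markers, relevant to Retnlg, rose in 5 of 17 genes and fell in 0, with a median of 1.17. The calprotectin subunits S100a8 and S100a9, which stressed squamous epithelium also makes, rose by 3.42 ± 0.29 and 1.13 ± 0.17, and the iron-binding Lcn2 by 3.83 ± 0.46 (limma, adjusted p = 0.000562, 0.0124 and 0.00376). Besides Ltf, Il1r2 was at -0.86 ± 0.20 and the gelatinase Mmp9 at 1.22 ± 0.27, neither past the threshold. With Dox replicate 2 omitted both Il1r2 and Ltf fell (adjusted p = 0.00662 and 0.000122), the 2 genes of the list called lower in that fit. Summed signal of the 13 recovered genes was 43101 to 85437 steps in Dox and 49319 to 53911 steps in NoDox, so the groups overlapped on that measure. That sum leans on Ltf, which held 1872, 45232 and 2665 steps in Dox arrays 1, 2 and 3. In NoDox arrays 1 and 2 Ltf held 30299 and 30786 steps. The count was 3 with Dox replicate 3 omitted, 1 with either NoDox array omitted, and 2 after quantile normalization of the ratios. With no intensity trend in the variance, 3 genes of alternative activation and 0 genes of every other list rose, and with a trend on the mean log2 ratio 0 genes of any list did. No marker in any of these lists was at 0, the lowest deposited value being 0.01.

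Genes beside the 3 loci did not share one pattern. On chromosome 16, the T cell adaptor gene Trat1 (0.37 ± 0.54), Morc1 (-0.84 ± 1.27), Dzip3 (-0.29 ± 0.25), Cip2a (0.04 ± 0.24) and Dppa2 (-0.91 ± 0.61) around the RELM row were not past the threshold, and Retnla was the one that rose. Next to Retn on chromosome 8, Mcemp1, a myeloid membrane protein gene, had ratios of 8.06, 4.27 and 4.36 in Dox and rose by 2.41 ± 0.44 (limma, adjusted p = 0.0261), while Retn itself did not pass. Near Itln1 on chromosome 1 the lymphocyte receptor gene Ly9 had ratios of 8.38, 7.68 and 13.9 in Dox and rose by 3.27 ± 0.60 (limma, adjusted p = 0.0268). Cd244a, which lies between them, was at 1.77 ± 0.41 (adjusted p = 0.0633) and F11r, on the other side, at 0.13 ± 0.13. Of the 5 arrays, omitting any but Dox replicate 2 ended the calls of Mcemp1 and Ly9 (adjusted p up to 0.217 and 0.220), and with an offset of 64 they stood at 1.80 and 1.76.

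The genes of nearest pattern were sought by the root mean square difference of log2 ratios over the 5 arrays. For Itln1 they were the eosinophil-associated ribonuclease genes Ear3 (difference 0.60), Rnase2a (0.61) and Rnase2b (0.70), which share sequence with each other. Ear3 had ratios of 34.3, 27.0 and 46.7 in Dox, more even than those of Itln1. For Retnla, Arhgef2 (0.05), Ikzf4 (0.07) and Arhgap8 (0.08) were nearest. For the dim Retnlb the nearest was the gel-forming mucin gene Muc5b (0.22), with ratios of 0.606, 3.39 and 1.28 in Dox and 0.471 and 1.53 in NoDox, so that Dox array 2 was highest for both. For Retn the nearest were Zfp563 (0.09), the neuropeptide gene Tac1 (0.09) and the sodium channel gene Scn7a (0.10). The nearest of 13643 or 13644 genes will be close by selection alone, and 5 arrays cannot separate a shared pattern from a chance one.

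**Figure D4:**
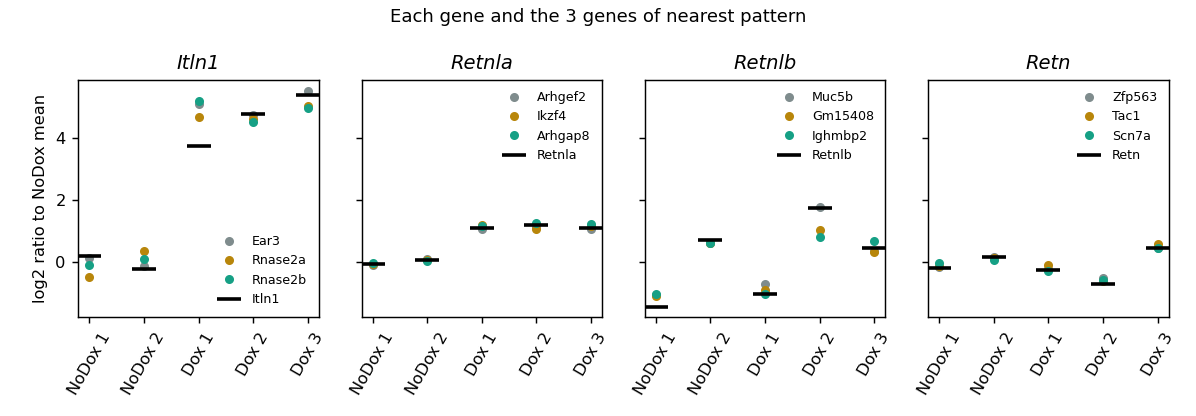
log2 ratio to the NoDox mean in each array for Itln1, Retnla, Retnlb and Retn (black bars) and for the 3 genes of nearest pattern to each (coloured points). Muc5b follows Retnlb to within 0.22 (root mean square, log2), and the ribonuclease genes lie 0.60 to 0.70 from Itln1. Each is farthest from Itln1 in Dox array 1, and Rnase2a is also apart from it in both NoDox arrays.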

How the data were processed

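Ratios were deposited by the authors as a linear ratio per probe set and array. Per the labels, signals came from Microarray Suite (MAS 5.0) at default settings and were normalized in GeneSpring 7.3.1, stated as pair-wise against unstimulated controls. Tested on the values, both NoDox ratios add up to 2 (tolerance 0.0001) for 45099 of 45101 probe sets, so the reference is the common NoDox mean. A constant scale per array (0.905 to 1.01 relative to NoDox array 1) was also found, and with it removed whole step numbers up to 50000 reproduced all 5 ratios within a relative 3e-07 for 40022 of 45098 probe sets (88.7%), against 0.150% with shuffled ratios. On simulated data 96.3% of recovered levels were right. The others, such as Retnla, got a lower bound.

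Log2 ratios, with no offset or filter, went into limma (version 3.58.1, under R 4.3.3; lmFit, eBayes with a trend on the mean log2 recovered signal), two-sided, Benjamini-Hochberg adjusted over 18193 genes, 1 probe set of highest signal per gene. The fit has 3 residual and 6.02 prior degrees of freedom. On simulated data it called 89, 135 and 154 of 200 genes changed 2-fold, 4-fold and 8-fold. Alternatives varied scaling, offset, filter, probe set, variance model, replicate block and single arrays. Named list genes are those of smallest p past the threshold and of highest signal not past it, at most 3 each, except where stated. Members, lists and methods were chosen with earlier results of these data known. Python 3.11.15, numpy 2.4.6, pandas 2.3.3 and matplotlib 3.10.9 prepared tables and plots.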

Additional observations from a re-analysis of the deposited data

How the results depend on the processing

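Itln1 kept its direction in all 18 alternatives (3.05 to 5.11) and its call in 13, and Retnla its direction in all 18 (0.94 to 1.24) and its call in 14. Calls ended with no intensity trend (Itln1 4.67, adjusted p = 0.108, and Retnla 1.13, adjusted p = 0.121) and with a trend on the mean log2 ratio (Itln1 4.67, adjusted p = 0.416, and Retnla 1.13, adjusted p = 0.295). Quantile normalization of the ratios ended that of Itln1 (3.26, adjusted p = 0.0525). The cause was not tested. With 1 array left out (without that replicate) the ranges were 4.29 to 5.11 for Itln1, 1.07 to 1.20 for Retnla, -0.33 to 1.83 for Retnlb (negative without NoDox replicate 1) and -0.47 to 0.11 for Retn (positive without Dox replicate 2, at 0.11, and without NoDox replicate 2, at 0.02). The lone NoDox array is there assumed to vary like the others. Retnlb and Retn passed in none of these, and Retnlb has no value under the filter on low signal. The count of 462 called genes was 66 with quantile normalization of the ratios, 6 with no trend (2434 at unadjusted p under 0.05), 0 with a trend on the mean log2 ratio (2386 at unadjusted p under 0.05), and 49 to 879 with 1 array left out. With the replicate number as a block it was 843. Itln1 was then at 4.29 (adjusted p = 0.000808) and Retnla at 1.15 (adjusted p = 0.000575). The samples share only a number, since deviations of same-numbered arrays correlated at 0.03 and 0.05, and Dox array 3, alone in its block, adds nothing to that fit. Removing the per-array scale moved the median of all genes from -0.08 to 0.03. This setting and quantile normalization of the recovered signals were chosen after seeing the data. Low signal limits Retnlb.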
